A study of Mus musculus with 24 samples.

Results

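Organoids of mouse small intestine were treated for 24 h with dFz7-21, a peptide that the series design describes as a blocker of the Wnt receptor Frizzled 7, or with the control peptide Fz7-21S. The comparison takes the 4 libraries titled dFz7-21 at 24 h and the 4 titled Fz7-21S at 24 h, 8 of the 24 libraries in the series, and every gene with enough reads in their count columns. The other 16 libraries, 4 each of the vehicle DMSO at 6 h and 24 h and of both peptides at 6 h, entered the same fit, and the DMSO 24 h and the 6 h groups are quoted where named. All groups are primary organoids of mouse small intestine, from which polyadenylated RNA was sequenced. The labels give no strain, genotype, age, dose or medium, and of Fz7-21S they give the name alone. They do not say whether the 4 replicates of a group came from separate cultures or animals, so the p-values measure the spread between these libraries, which may be technical.

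Wnt proteins bind Frizzled receptors together with the co-receptors Lrp5 and Lrp6, which stabilises beta-catenin and lets it activate genes with TCF factors. Many of these genes encode feedback inhibitors or receptors of the pathway itself. In the intestinal crypt the signal keeps Lgr5-expressing stem cells dividing and maintains Paneth cells, while cells that leave the crypt become absorptive enterocytes or secretory goblet, enteroendocrine and tuft cells. Organoids hold these epithelial types without the mesenchyme that surrounds the crypt in the animal.

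Fz7-21S replicate 4 and dFz7-21 replicate 3 stood apart from their groups. In Fz7-21S replicate 4, genes in the shortest 10% by gene length lay a median 0.54 higher on the log2 scale than in the other 3 Fz7-21S libraries, and genes in the longest 10% lay 0.64 lower. In dFz7-21 replicate 3, 25 markers of mesenchymal cells summed to 1928 CPM (counts scaled to library size with TMM factors), against 15.1 to 21.6 CPM in the other 3 dFz7-21 libraries and 13.0 to 15.8 CPM in Fz7-21S. Col1a1, the main collagen chain of fibroblasts, stood at 0.289, 0.0871, 395 and 0.185 CPM in dFz7-21 and at 0.415, 0.0884, 0.181 and 0.657 CPM in Fz7-21S, and Vim, a mesenchymal filament protein, at 4.87, 4.79, 257 and 3.23 CPM and 3.15, 2.56, 3.87 and 4.55 CPM. Of the mesenchymal list, 12 members had enough reads to be tested and 11 passed as higher (adjusted p below 0.05 in edgeR's quasi-likelihood test, reached as higher by 16.5% of all genes tested), and without replicate 3 of dFz7-21 and replicate 4 of Fz7-21S none passed as higher and 1, Myl9, as lower. The part of the mesenchymal transcripts in single results was not tested beyond leaving the library out; gene length was addressed in the same way and by a fit with an offset for length. The mesenchymal markers Dcn and Lum were at 0 counts in all 12 libraries at 24 h, as were the endothelial marker Cdh5 and the neural crest marker Sox10. Immune markers (27 genes) summed to 28.2 to 33.0 CPM in dFz7-21 and 24.0 to 30.6 CPM in Fz7-21S, and of 10 tested 1, Itgam, passed as higher. Endothelial, glial and neural markers (19 genes) summed to 36.7 to 41.7 CPM and 39.1 to 44.9 CPM, and of 10 tested Lyve1 passed as higher and Esam and Prox1 as lower. Markers of the labelled tissue were present: the 12 general epithelial genes summed to 15911 to 17195 CPM in dFz7-21 and 13083 to 16725 CPM in Fz7-21S, and 5 rose, Krt20 and Vil1 of differentiated cells among them, and 1, Krt18, fell (10 and 1 without both libraries). Counts per library ran from 21574144 to 27377146. Every gene and list was also fitted without both libraries, and for genes named here that value is given where the call was lost or gained, the direction turned or a called value moved by more than 1.5 times.

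dFz7-21 changed 5202 of the 15429 genes tested against Fz7-21S at 24 h, mostly by small amounts. These passed at an adjusted p below 0.05 (33.7%; edgeR quasi-likelihood test, Benjamini-Hochberg), 2551 higher (16.5%) and 2651 lower (17.2%). The median absolute log2 fold change of these genes was 0.39. Counts of called members in the gene lists are to be read beside the shares of 33.7%, 16.5% and 17.2% over all genes. Of the genes called, 264 rose and 323 fell at least 2-fold, and 100 rose and 69 fell at least 4-fold. The large rises rested on the 2 libraries that stood apart: without both, 132 genes rose and 421 fell at least 2-fold, 7 rose and 96 fell at least 4-fold, and 95 of the 100 genes with 4-fold rises were no longer called. Without both libraries 5675 genes passed (36.8%), of which 4094 had passed in the same direction with all 8 libraries and 2 in the opposite one, while 1106 of the first 5202 no longer passed (21.3%). A fit of the 8 libraries alone called 2275, and the same fit without both called 5628. In 2063 genes all 4 dFz7-21 libraries lay above all 4 Fz7-21S libraries (13.4%), and in 1931 they lay below (12.5%).

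**Figure D1:**
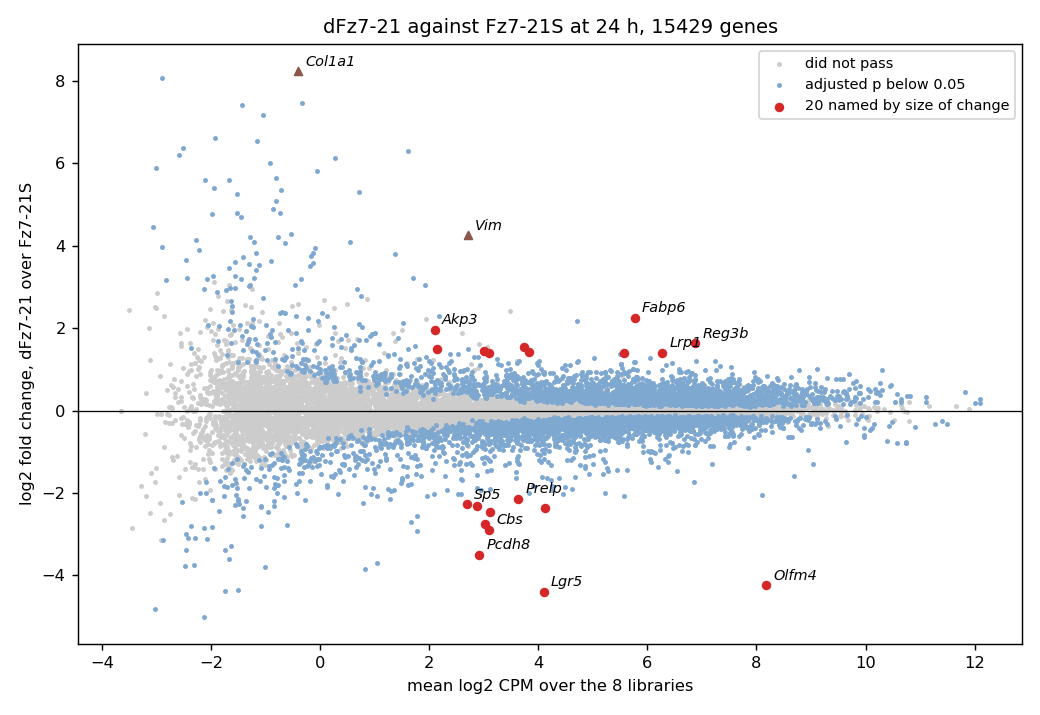
Log2 fold change of dFz7-21 over Fz7-21S at 24 h (vertical) against the mean log2 CPM over the 8 libraries (horizontal) for 15429 genes, with the 5202 that passed in blue and, in red, the 10 largest rises and the 10 largest falls among genes averaging log2 CPM 2 or more whose groups did not overlap and whose call held without both libraries. Lgr5 and Olfm4 lie lowest among the red points, at -4.39 and -4.23, and Fabp6 lies highest, at 2.25; the brown triangles mark Col1a1 and Vim, which were high in 1 dFz7-21 library.

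The transcript of the targeted receptor itself was lower. Fzd7 (chr1:59482147-59486955, GRCm38), the receptor for which the peptide is named, was counted at 27.5, 25.4, 40.6 and 27.3 CPM in dFz7-21 replicates 1 to 4 and at 49.5, 45.7, 46.1 and 31.7 CPM in Fz7-21S replicates 1 to 4. The highest dFz7-21 library is the one with mesenchymal transcripts, the lowest Fz7-21S library is the one that stands apart by gene length, and these values made the groups overlap. The log2 fold change was -0.52 ± 0.12 (SE; adjusted p = 0.0018), and -0.80 without both libraries, where the groups did not overlap. The DMSO libraries stood at 52.0 ± 4.66 CPM (mean ± SD, n = 4, as for all means here). All 10 Frizzled genes were tested: 5 fell and 1 rose (60% called against 33.7% of all genes). Their median log2 fold change was -0.42 (-0.65 without both libraries) against -0.01 over all genes tested. Fzd3 fell by 0.95 on the log2 scale and Fzd9 by 1.03, both from low levels (2.73 ± 0.222 and 4.49 ± 1.41 CPM in Fz7-21S), and Fzd6 fell by 0.32 (-0.50 without both libraries). Fzd10 also passed as lower, but its mean of 0.116 CPM in dFz7-21 lies at the level of 3 counts per library (0.110 to 0.139 CPM), and it did not pass without both libraries (-1.45, adjusted p = 0.058 in edgeR). Fzd2 did the opposite, at -0.87 with all libraries (adjusted p = 0.067) and -1.81 without both (adjusted p = 9.9e-09), so the 5 members that fell were not the same ones. Fzd5, another Wnt receptor of the intestinal epithelium, was the one that rose, from 219, 219.8, 223 and 150.5 CPM in Fz7-21S to 306, 307, 281 and 286 CPM in dFz7-21 (0.54 ± 0.09, adjusted p = 4.2e-05). Fz7-21S replicate 4 was the lowest of the 8, and all 4 dFz7-21 libraries lay above all 4 Fz7-21S libraries. Because RNA was taken from whole organoids, fewer cells of a type and less RNA per cell cannot be told apart here or in any later result.

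Genes of Wnt ligands, co-receptors and receptor turnover moved less uniformly. Of 22 listed genes 16 were tested, 6 fell and 1 rose (43.8% called against 33.7% of all genes, median -0.34). Without both libraries 8 fell and 1 rose (median -0.54). Wnt3, a ligand made by Paneth cells, fell from 18.4 ± 2.31 CPM to 9.84 ± 1.08 CPM (-0.91 ± 0.11, adjusted p = 8.7e-07); its gene overlaps Wnt9b. Rnf43 and Znrf3 encode membrane ubiquitin ligases that remove Frizzled receptors from the surface. Rnf43 was at 73.9, 66.5, 62.7 and 65.2 CPM in dFz7-21 against 133, 124, 131 and 109 CPM in Fz7-21S, with no overlap (-0.89 ± 0.06, adjusted p = 1.6e-10). Znrf3 fell by 0.64 on the log2 scale (adjusted p = 3.5e-04). Lrp6, a Wnt co-receptor, was the member that rose (0.39 ± 0.14, adjusted p = 0.032), but its call was lost when dFz7-21 replicate 1 or replicate 2 was left out, and it stood at 0.25 without both libraries (adjusted p = 8.7e-04). Of 20 genes of the intracellular pathway, such as the dishevelled, Gsk3 and TLE proteins, 2 rose and 2 fell (against 33.7% of all genes called; median 0.02), and 1 rose and 5 fell without both libraries (median -0.07). Among them the co-repressor Tle3 fell by 0.46 and the dishevelled gene Dvl2 by 0.33 on the log2 scale, and Gsk3a, which encodes a kinase of the beta-catenin destruction complex, rose by 0.12 (lost without Fz7-21S replicate 1; its gene overlaps 9130221H12Rik), as did Dvl1, by 0.17 (adjusted p = 0.053 without both libraries).

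Transcripts of genes that Wnt signalling induces fell as a group. Of 27 listed feedback and target genes 24 were tested, 20 fell and 4 did not pass, with a median of -0.94 on the log2 scale, and in 16 all dFz7-21 libraries lay below all Fz7-21S libraries. Nkd2, Notum, Tnfrsf12a and Cdx1 were those that did not pass. Without both libraries 20 fell and 1, the intestinal identity factor gene Cdx1, rose (0.22). Axin2, a scaffold of the destruction complex and the usual readout of the pathway (chr11:108917828-108950783), was at 116, 77.6, 87.7 and 94.3 CPM in dFz7-21 and at 262, 245, 249 and 169.8 CPM in Fz7-21S. The lowest Fz7-21S library was replicate 4, and it still lay above every dFz7-21 library (-1.30 ± 0.11, adjusted p = 3.5e-09). Sp5, a transcription factor gene, fell from 13.1, 13.2, 15.4 and 14.5 CPM to 2.80, 2.44, 2.55 and 3.84 CPM, 4.84-fold (-2.28 ± 0.16, adjusted p = 1.1e-10). Nkd1, which encodes an inhibitor of dishevelled, fell from a low level, 3.19 ± 1.17 CPM to 1.2 ± 0.379 CPM (-1.42 ± 0.26, adjusted p = 1.5e-04). Myc and Ccnd1, which drive growth and cell cycle entry, fell by less, by 0.49 and 0.24 on the log2 scale, and neither overlapped between groups. Notum, which encodes an enzyme that inactivates Wnt proteins, stood near 1 CPM in both groups (1.0 ± 0.249 and 1.07 ± 0.501 CPM, -0.09 ± 0.36, adjusted p = 0.87).

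Promoters of 2 of these genes are shown because they hold the TCF binding motif CTTTGAT, searched on both strands in RefSeq promoters (GRCm38.p6) of 300 bases, 250 before to 50 after the annotated start. Only the 250 bases before the start are printed, 5′ to 3′ on the gene's strand, with the motif in capitals; in Tnfrsf19 it is read on the other strand as ATCAAAG.
Sp5, chr2:70474673-70474922, plus strand: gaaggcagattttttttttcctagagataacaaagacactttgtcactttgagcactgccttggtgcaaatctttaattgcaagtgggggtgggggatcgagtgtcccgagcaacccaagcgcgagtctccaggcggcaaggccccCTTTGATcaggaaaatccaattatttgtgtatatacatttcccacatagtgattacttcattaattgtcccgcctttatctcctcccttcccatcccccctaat
Tnfrsf19, chr14:61037988-61038237, minus strand: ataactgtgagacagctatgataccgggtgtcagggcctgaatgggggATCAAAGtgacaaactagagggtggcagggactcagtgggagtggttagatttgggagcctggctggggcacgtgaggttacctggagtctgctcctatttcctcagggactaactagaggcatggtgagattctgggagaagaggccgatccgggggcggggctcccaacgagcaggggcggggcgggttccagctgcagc
The motif begins 104 bases before the start of Sp5 and 202 bases before that of Tnfrsf19. Tnfrsf19, a receptor of the tumour necrosis factor family found in crypt stem cells, was named for its promoter after its values had been seen; it fell from 31.9, 28.6, 30.2 and 22.1 CPM to 10.5, 7.32, 6.52 and 7.76 CPM (-1.82 ± 0.14, adjusted p = 4.1e-10). Of the 24 tested Wnt target genes, 15 had a promoter in the table and 2 held the motif. Over all tested genes with a promoter searched, 366 of 11334 held it (3.23%). The share was 3.80% among genes that fell (77 of 2025), 3.01% among genes that rose (59 of 1963), 6.88% among genes that fell at least 2-fold (15 of 218) and 3.89% among genes that rose at least 2-fold (7 of 180). These shares describe letters in a short window and were not tested.

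Lgr5 stem cell genes fell furthest. All 39 listed genes were tested, 35 fell and 2 rose (median -1.29), and in 33 all dFz7-21 libraries lay below all Fz7-21S libraries; 10 of the 39 are also in the Wnt target list. Lgr5, the receptor for R-spondins that marks crypt base stem cells (chr10:115450314-115587780), was at 4.77, 2.0, 4.41 and 4.11 CPM in dFz7-21 replicates 1 to 4 and at 90.1, 79.6, 96.0 and 55.1 CPM in Fz7-21S replicates 1 to 4. The lowest control library, replicate 4, lay far above the highest dFz7-21 library, and the fold change was -4.39 ± 0.20 on the log2 scale (adjusted p = 2.1e-13). Olfm4, a secreted stem cell marker (chr14:80000302-80023141), fell 18.8-fold, from 1375, 1271, 1285 and 1168 CPM to 87.2, 45.1, 63.1 and 76.3 CPM (adjusted p = 1.2e-15). In the DMSO libraries Lgr5 was at 97.1 ± 19.3 CPM and Olfm4 at 1367 ± 227 CPM. Smoc2, a matricellular protein gene of stem cells, varied little within groups, with 148, 116, 137 and 141 CPM against 563, 534, 548 and 586 CPM (-2.04 ± 0.06, adjusted p = 1.0e-16). Ascl2, the transcription factor of the stem cell state, fell from 29.0, 32.7, 34.5 and 50.8 CPM to 14.0, 6.71, 9.19 and 11.4 CPM (-1.83 ± 0.18, adjusted p = 3.0e-08); Fz7-21S replicate 4 was its highest library. Rgmb, a co-receptor for bone morphogenetic proteins (BMPs), fell by 1.74 on the log2 scale, and Lrig1, a brake on epidermal growth factor receptors, by 0.88. The members that went the other way were Vdr, the vitamin D receptor (0.36 ± 0.09, adjusted p = 0.0024), and Fstl1. Fstl1 was at 0.193, 0.0871, 47.0 and 0.0462 CPM in dFz7-21, so its call rested on the library with mesenchymal transcripts, and it did not pass without both libraries (-2.07, adjusted p = 0.42). Bmi1 and Tert, which mark slow-cycling cells in some studies, did not pass (-0.22 and 0.17). Without both libraries Bmi1 passed (-0.29, adjusted p = 0.0023). Hopx, another member of the list, fell by 0.60 on the log2 scale (-0.38 without both libraries) and was named after its value had been seen.

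**Figure D2:**
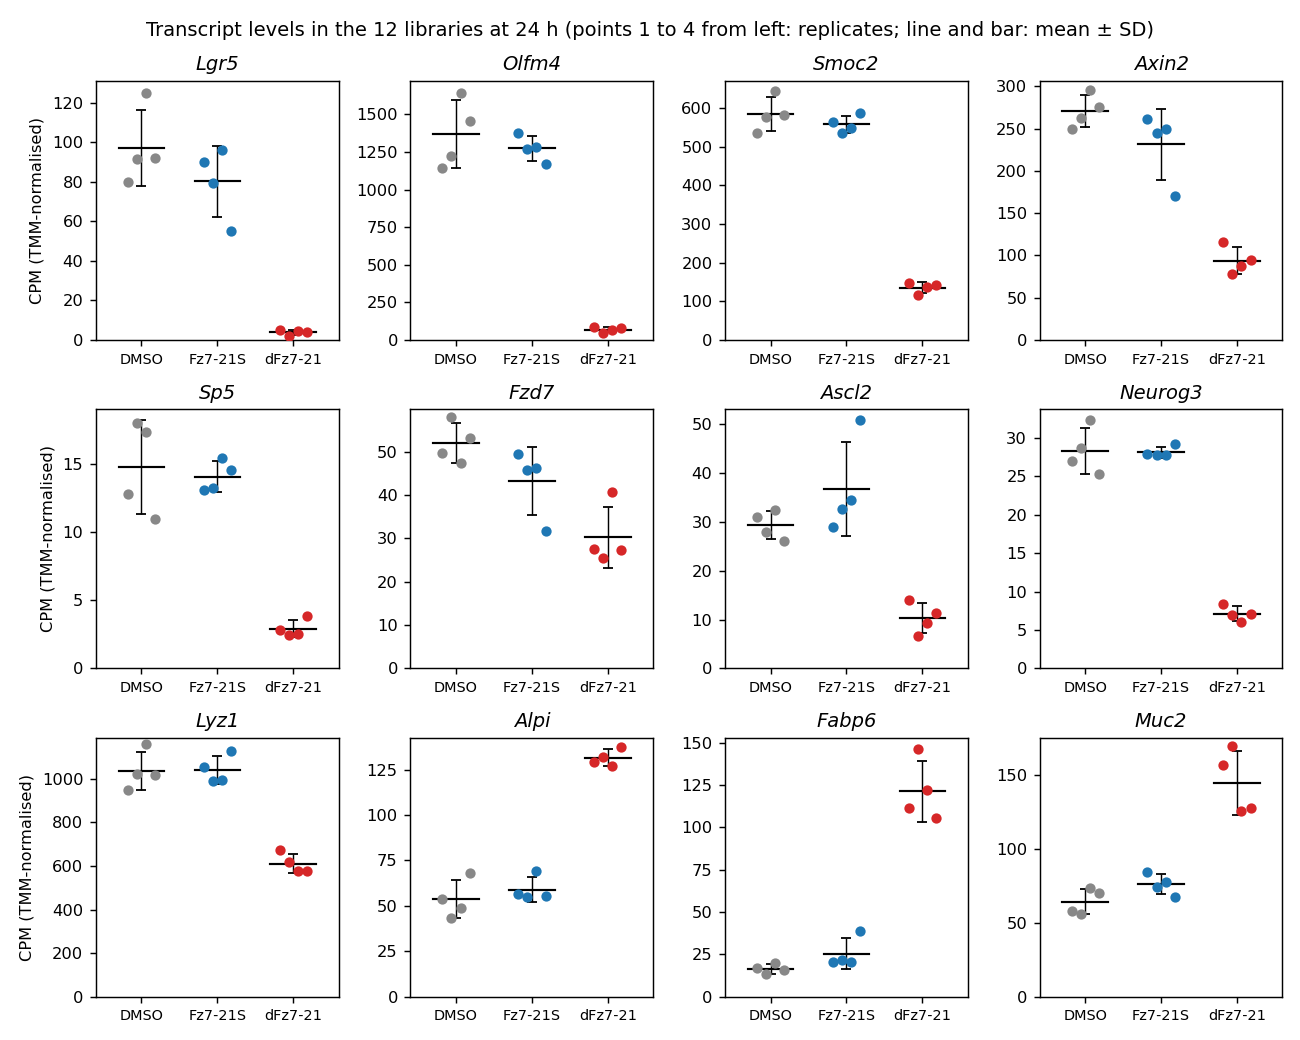
Level in CPM (vertical axes, from 0) of 12 genes in each of the 12 libraries at 24 h, 4 each of DMSO, Fz7-21S and dFz7-21; points are replicates, and the line and bar give mean ± SD. In Lgr5, Olfm4, Smoc2, Axin2, Sp5, Ascl2, Neurog3 and Lyz1 every dFz7-21 point lies below every control point, in Alpi, Fabp6 and Muc2 every one lies above, and in Fzd7 dFz7-21 replicate 3 reaches 40.6 CPM, above the 31.7 CPM of Fz7-21S replicate 4.

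Of the 10 genes with the largest falls by the same limits, 5 are in none of the lists. Pcdh8, a protocadherin gene, fell from 27.9, 27.2, 31.0 and 19.7 CPM to 4.29, 1.35, 1.21 and 2.63 CPM (-3.50 ± 0.26, adjusted p = 3.8e-10). Cbs, which encodes the first enzyme of transsulfuration, fell from 21.9, 20.1, 21.7 and 28.3 CPM to 3.37, 2.79, 3.20 and 3.05 CPM, 7.40-fold, with dFz7-21 libraries that differed by little (-2.89 ± 0.12, adjusted p = 1.4e-14). Cth, the next enzyme of that pathway, went the other way and rose from 274 ± 8.84 CPM to 391 ± 18.8 CPM (0.51 ± 0.05). Angpt2, an angiopoietin gene that overlaps Mcph1, fell by 2.75 on the log2 scale, and Pik3ap1, an adaptor of phosphoinositide 3-kinase, by 2.46. Prelp, which encodes a leucine-rich matrix protein, fell by 2.14. The other 5 were Lgr5, Olfm4 and Sp5, described above, with Msi1, an RNA-binding protein of stem cells (-2.37), and Ptpro, a receptor tyrosine phosphatase (-2.30), which belong to the stem cell list. All 10 remained called when any 1 library was left out. Groups without overlap were a condition for choosing them.

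Genes of DNA replication fell while genes of mitosis moved little. Of 30 replication and S phase genes 26 fell and 1 rose (median -0.48), and without both libraries 28 fell and 1 rose. Mcm6, a subunit of the replicative helicase, fell from 271, 265, 250.2 and 244 CPM to 172, 162, 177 and 183 CPM (-0.57 ± 0.05, adjusted p = 3.8e-09), and Cdc6, which loads that helicase, from 26.3 ± 1.33 to 16.1 ± 0.868 CPM. E2f2, an activator of S phase genes, was the member that rose, from 85.5, 94.8, 92.0 and 87.5 CPM to 156, 149, 136 and 147 CPM (0.71 ± 0.06, adjusted p = 3.9e-09). Of 28 genes of G2 and mitosis 7 fell (median -0.11; 25% called against 33.7% of all genes), and 3 fell without dFz7-21 replicate 3. Without both libraries 7 fell and 1 rose (median -0.07). Top2a, the topoisomerase of chromosome segregation, fell by 0.25 on the log2 scale. Mki67, the usual marker of cycling cells, was at 378, 359.8, 316 and 348 CPM against 389, 361, 348 and 203 CPM and did not pass (0.11 ± 0.12, adjusted p = 0.53). Its 95% interval ran from -0.15 to 0.36, and the low control library was Fz7-21S replicate 4. Among 29 regulators of G1, 7 rose and 9 fell (55.2% called against 33.7% of all genes). Mycl, a Myc family gene, fell by 1.0 and the kinase gene Cdk4 by 0.63. Ribosome biogenesis genes also fell, 20 of 30 (median -0.29; 18 and -0.20 without both libraries). The nucleolar protein gene Ncl went from 1262, 1269, 1138 and 1497 CPM to 999, 949, 901 and 992 CPM (-0.43 ± 0.06, adjusted p = 8.7e-06), highest in Fz7-21S replicate 4.

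Absorptive cell genes rose. Of 44 enterocyte genes 34 rose and 1 fell (median 0.52; 38 and 1 without both libraries). Alpi, the intestinal alkaline phosphatase of the brush border (chr1:87098002-87101606), rose from 56.3, 54.8, 69.2 and 55.3 CPM to 129, 132, 127 and 138 CPM (1.16 ± 0.10, adjusted p = 6.0e-09); its gene overlaps Gm29371. Akp3, the neighbouring alkaline phosphatase gene, rose from 2.99, 2.92, 2.53 and 0.657 CPM to 7.86, 10.5, 8.14 and 9.38 CPM and Car4, a membrane carbonic anhydrase, from 6.72, 7.34, 7.67 and 13.8 CPM to 20.1, 28.2, 22 and 24.4 CPM. Fz7-21S replicate 4 was the lowest control for Akp3 and the highest for Car4. Both are among the 10 largest rises, for which groups without overlap were a condition of choice. Enpep, a brush border aminopeptidase, rose from 391 ± 54.2 to 792 ± 58.5 CPM (1.02 ± 0.09, adjusted p = 4.5e-09), and Dgat1, which makes triglycerides for chylomicrons, rose by 0.75. Ada, adenosine deaminase, was the member that fell (-0.61 ± 0.12, adjusted p = 2.4e-04).

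Ileal bile acid genes included the largest rise among genes averaging log2 CPM 2 or more whose groups did not overlap and whose call held without both libraries. Fabp6, the ileal bile acid binding protein (chr11:43596040-43601562), rose from 20.6, 21.6, 20.8 and 39.1 CPM to 111, 146, 122 and 106 CPM, 4.77-fold (2.25 ± 0.19, adjusted p = 4.6e-09). Slc51a, a subunit of the basolateral bile acid exporter, rose by 1.28 on the log2 scale, and Nr1h4, the bile acid receptor FXR, by 0.95. Of 12 ileal and bile acid genes 11 were tested and 6 rose (8 without both libraries, with medians of 0.36 and 0.63), while 5 did not pass. Fgf15, a hormone gene that bile acids induce through FXR, was one of these 5 and was named after its value had been seen: its mean was 23.4 against 23.0 CPM. Genes of fatty acid oxidation rose in 19 of 25 and fell in 1 (median 0.37; 20 rose without both libraries). Cpt1a, the gatekeeper of fatty acid entry into mitochondria, rose from 146, 144, 154 and 107 CPM to 234, 251, 232 and 223 CPM (0.77 ± 0.08, adjusted p = 3.1e-08). Acot1, a thioesterase, was the member that fell (-0.34 ± 0.10). It did not pass without dFz7-21 replicate 3, without Fz7-21S replicate 4 or without both (-0.20, adjusted p = 0.081 in edgeR). In glycolysis and hypoxia, 11 of 27 genes rose and 1 fell (44.4% called against 33.7% of all genes). Pfkp, a phosphofructokinase, rose by 0.76 and Hk2, a hexokinase, fell by 0.28.

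Sterol and lipid synthesis genes rose by small amounts. Of 30 genes 23 rose and 7 did not pass, with a median of 0.23, and the largest change was that of Scd1, a fatty acid desaturase, from 304, 349.6, 335 and 266 CPM to 576, 676, 599.9 and 629 CPM (0.98 ± 0.08, adjusted p = 5.8e-10). Hmgcs1, the HMG-CoA synthase ahead of mevalonate, rose from 606, 647, 597 and 577 CPM to 834, 905, 792 and 829.5 CPM (0.47 ± 0.06, adjusted p = 9.6e-07), and the groups did not overlap. SREBP factors, which control these genes, bind sterol response elements, so its promoter is shown with the motif TCACNCCAC (both strands; added after the values had been seen) in capitals.
Hmgcs1, chr13:119690101-119690350, plus strand: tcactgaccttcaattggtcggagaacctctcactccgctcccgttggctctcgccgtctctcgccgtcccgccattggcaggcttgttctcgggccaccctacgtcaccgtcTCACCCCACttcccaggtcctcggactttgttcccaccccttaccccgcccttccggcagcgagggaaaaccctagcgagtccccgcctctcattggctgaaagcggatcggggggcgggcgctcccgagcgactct
The motif begins 137 bases before the start. It was the 1 promoter with the motif among 21 of the 30 genes that had one in the table, against 160 of 11334 over all tested genes (1.41%), 48 of 1963 that rose (2.45%) and 17 of 2025 that fell (0.840%).

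Secretory lineages did not move as one. Paneth cell genes fell: of 31 listed 26 were tested and 19 fell, while 7 did not pass (median -0.76; without both libraries 19 fell and 1, Guca2b, rose, with a median of -0.54). Lyz1, the Paneth cell lysozyme, went from 1052, 992, 993 and 1128 CPM to 671, 616, 579 and 576 CPM (-0.77 ± 0.06, adjusted p = 2.4e-09). Cd24a, a surface marker of Paneth cells, fell from 305, 319.7, 285 and 343 CPM to 165, 167, 166 and 169 CPM, and Pla2g2a, a secreted phospholipase, by 1.5 on the log2 scale. The list holds defensin genes that are near-identical copies, whose uniquely aligned counts are uncertain. Goblet cell genes split, with 7 of 25 higher and 9 lower (64% called against 33.7% of all genes, median -0.15). Without both libraries 9 were higher and 9 lower, with a median of 0.05. Muc2, the gel-forming mucin, rose from 84.4, 74.6, 78.1 and 67.8 CPM to 157, 169.6, 126 and 128 CPM (0.93 ± 0.10, adjusted p = 1.6e-07), and Clca1, a secreted protein of the mucus, from 27.9, 30.3, 31.3 and 27.8 CPM to 71.4, 95.8, 73.1 and 70.9 CPM (1.41 ± 0.10, adjusted p = 1.1e-10). The transcription factor genes Foxa2 and Foxa3 fell, by 1.29 and 1.25. Atoh1, the factor that commits cells to secretory fates, fell from 19.1, 20.4, 22.1 and 22.9 CPM to 18.6, 17.1, 16.4 and 14.5 CPM (-0.34 ± 0.10, adjusted p = 0.0094), a call lost without dFz7-21 replicate 4.

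Enteroendocrine genes also split, 6 higher and 7 lower of 35 (37.1% called against 33.7% of all genes; median -0.15, and -0.05 without both libraries). Neurog3, the factor that starts this lineage, fell from 27.9, 27.8, 27.8 and 29.2 CPM to 8.39, 7.01, 5.99 and 7.07 CPM, 3.96-fold (-1.99 ± 0.10, adjusted p = 2.5e-13), and Insm1, a factor downstream of it, fell by 0.93. Pyy, a hormone gene of the distal gut, rose by 1.30, named after its value had been seen. Chga, the granule protein of mature cells, rose from 29.3, 26.6, 31.0 and 43.0 CPM to 40.8, 49.6, 47.2 and 36.8 CPM, with 1 library, Fz7-21S replicate 4, inside the range of dFz7-21 (0.43 ± 0.11, adjusted p = 0.0056). Of 21 tuft cell genes 5 rose and 1 fell, 28.6% called against 33.7% of all genes (3 and 1 without both libraries). Dclk1, a kinase that marks tuft cells, rose from 5.76, 5.61, 6.98 and 2.63 CPM to 8.63, 10.1, 9.03 and 8.50 CPM (0.78 ± 0.18, adjusted p = 0.0014), while Pou2f3, the factor that specifies them, fell from 5.83 ± 0.579 to 3.22 ± 0.627 CPM (-0.86 ± 0.17, adjusted p = 4.3e-04).

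**Figure D3:**
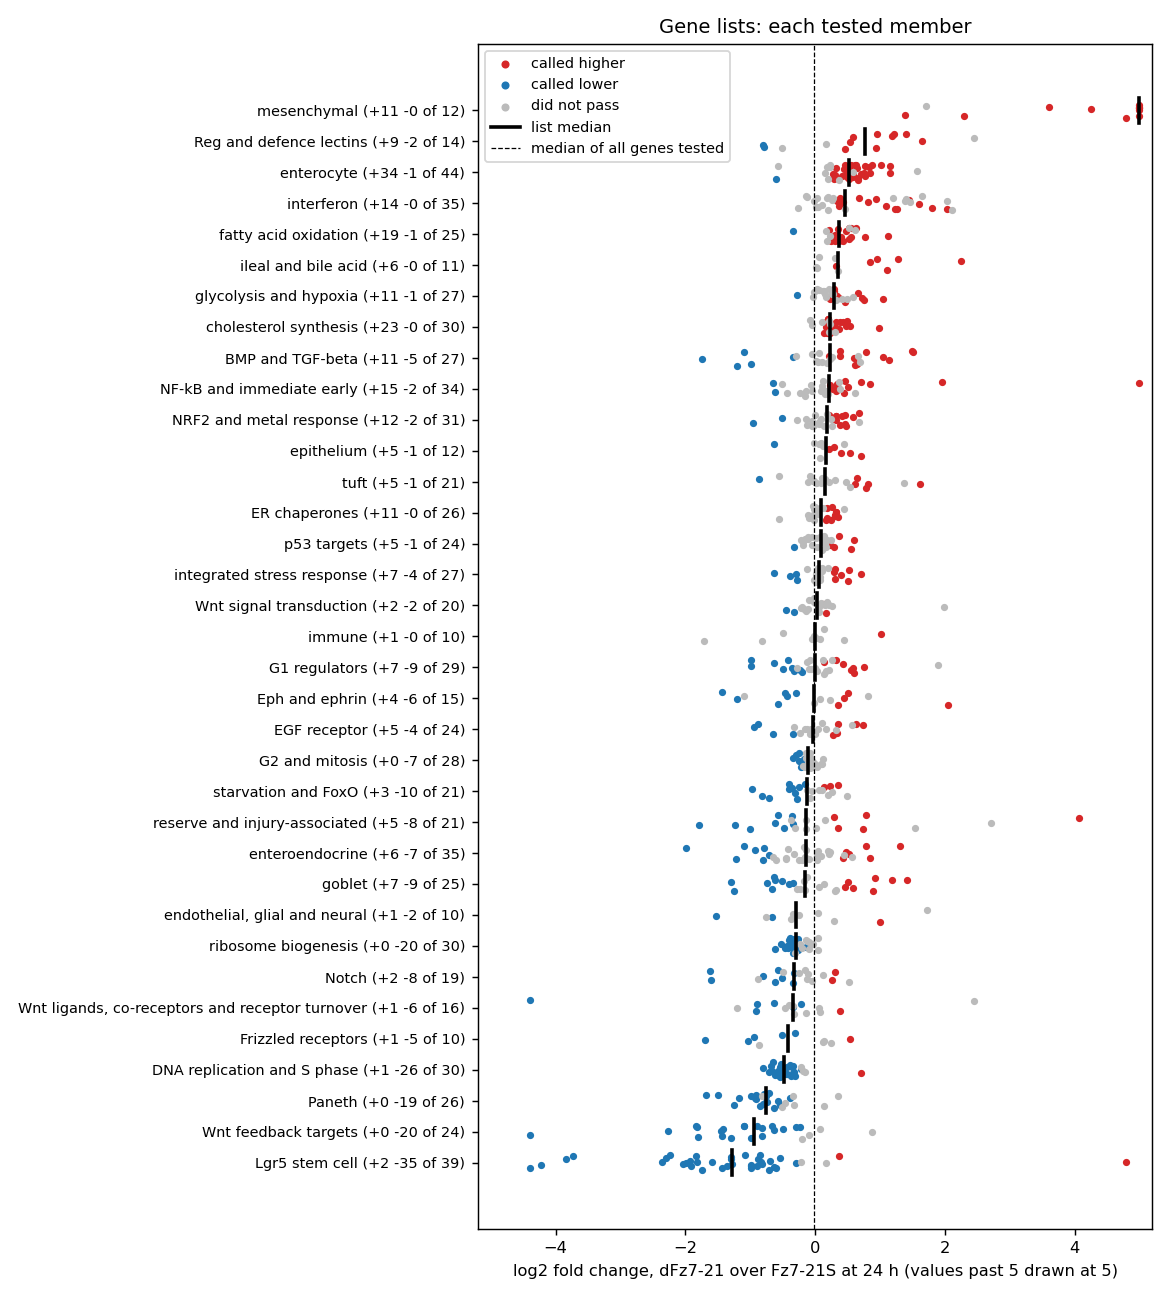
Log2 fold change of dFz7-21 over Fz7-21S at 24 h (horizontal; values past 5 drawn at 5) for each tested member of 35 gene lists, ordered by median; red and blue points passed as higher and lower, grey points did not pass, and the dashed line is the median of all genes tested, -0.01. The stem cell and Wnt target lists lie lowest, at medians of -1.29 and -0.94, and the mesenchymal list stands highest through 1 library.

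Genes of the Reg family and mucosal defence mostly rose, unlike the Paneth cell list above. Of 20 listed genes 14 were tested, 9 rose and 2 fell (median 0.76). Reg3b, an antibacterial lectin, rose from 52.6, 60.4, 62.6 and 94.6 CPM to 204, 241, 197 and 199.8 CPM (1.64 ± 0.18, adjusted p = 3.4e-07), and Reg1 from 4.64, 4.55, 4.99 and 6.85 CPM to 12.5, 13.8, 14.7 and 14.4 CPM. Nos2, inducible nitric oxide synthase, rose from 17.5 ± 2.01 to 40.6 ± 4.2 CPM (1.21 ± 0.08, adjusted p = 9.0e-11), and Pigr, which carries immunoglobulin A across the epithelium, by 0.59. The members that fell were Itln1, an intestinal lectin (-0.78), and Reg4 (-0.80), both highest in Fz7-21S replicate 4. Interferon response genes rose in 14 of 35 (40.0% called against 33.7% of all genes, median 0.46), and in 11 without both libraries (median 0.30). Oasl2, a gene of the antiviral oligoadenylate synthetase family, rose from 3.90, 5.22, 6.33 and 4.04 CPM to 11.7, 15.5, 14.7 and 11.6 CPM (1.45 ± 0.26, adjusted p = 1.1e-04). Irf7, a transcription factor of that response, rose from 23.2 ± 2.0 to 37.1 ± 1.11 CPM. Among 34 NF-kB and immediate early genes 15 rose and 2 fell (50% called against 33.7% of all genes). Atf3 rose by 0.70 and Klf6 by 0.46, while Nr4a2 (-0.63) and Tnf (-0.65) fell. Without both libraries 14 rose and 4 fell, and Tnf did not pass (-0.50, adjusted p = 0.051 in edgeR).

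Other signalling systems of the crypt were mixed. In the Notch pathway 8 of 19 genes fell and 2 rose (52.6% called against 33.7% of all genes, median -0.33). Without both libraries 10 fell and 2 rose. Lfng, a glycosyltransferase that modifies Notch receptors, fell from 44.6, 39.1, 45.1 and 49.1 CPM to 19.2, 11.7, 13.8 and 13.8 CPM (-1.61 ± 0.12, adjusted p = 2.7e-10), the ligand gene Dll1 by 0.81 and the target gene Hes1 by 0.57 on the log2 scale. Jag1, another ligand, and Rfng, a relative of Lfng, rose by 0.31 and 0.25. In the BMP and TGF-beta list 11 of 27 rose and 5 fell (59.3% called against 33.7% of all genes, median 0.22). Without both libraries 10 rose and 8 fell, with a median of -0.02. Id1, a direct target of BMP signalling, rose from 36.6, 42.2, 41.5 and 69.8 CPM to 74.8, 68.2, 74.8 and 77.7 CPM, and Fz7-21S replicate 4 lay inside the range of dFz7-21 (0.64 ± 0.13, adjusted p = 6.5e-04; 0.89 without both libraries). Bmp7, a ligand, and Bambi, a decoy receptor that Wnt signalling induces, fell by 0.99 and 1.10, as did Rgmb, given above, and Rgma and Bmp8b. Ihh, the hedgehog ligand of differentiated epithelium, rose from 79.1 ± 9.64 to 121 ± 2.49 CPM (0.62 ± 0.06, adjusted p = 7.1e-08). Epidermal growth factor receptor genes split 5 higher and 4 lower of 24, with 37.5% called against 33.7% of all genes (6 and 8 without both libraries). The ligand gene Ereg rose by 0.74 and the target gene Etv4 fell by 0.95. Eph receptors and ephrins position cells along the crypt. Of 15 tested 4 rose and 6 fell (66.7% called against 33.7% of all genes). Their median was -0.02, and -0.26 without both libraries. Ephb3 fell from 82.1, 76.2, 80.5 and 85.3 CPM to 34.1, 24.0, 29.7 and 31.7 CPM (-1.44 ± 0.08, adjusted p = 1.9e-12) and the ligand gene Efna4 by 1.2, whereas Efnb1, the ligand gene of the villus side, rose by 0.50. Ephb2 fell by 0.29, a call lost without dFz7-21 replicate 2, dFz7-21 replicate 3 or Fz7-21S replicate 3.

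The control peptide itself differed from the vehicle in a small set of genes, so levels in all 3 groups at 24 h are given for the stress lists. Against DMSO, 40 genes were called in Fz7-21S (0.259% of those tested), each of them higher. DESeq2 called 114 higher and 22 lower, and 2144 genes higher and 1529 lower had an unadjusted p below 0.05 in edgeR. Of the 40, 12 belong to the integrated stress response list of 27 tested genes and 8 to the NRF2 and metal response list of 31. Leaving out Fz7-21S replicate 1 raised the count to 1915, and leaving out DMSO replicate 2 lowered it to 23. This comparison shares the Fz7-21S libraries with the main one, so the values are set side by side. Asns, asparagine synthetase and a target of the stress factor ATF4, stood at 248 ± 12 CPM in DMSO, 320 ± 23.1 CPM in Fz7-21S and 323 ± 13.1 CPM in dFz7-21. Gsta3, a glutathione transferase, stood at 148 ± 11, 220.0 ± 35.5 and 220.4 ± 16.6 CPM, and Cyp1a1, a target of the aryl hydrocarbon receptor, at 47.1 ± 4.70, 75.6 ± 8.67 and 74.3 ± 9.23 CPM. These 3 genes, named after their values were seen, passed for Fz7-21S against DMSO and did not pass for dFz7-21 against Fz7-21S, except that Gsta3 passed without both libraries (0.18, adjusted p = 0.0049).

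Other stress genes differed between the peptides as well. Chac1, a glutathione-degrading target of ATF4, stood at 34.8 ± 3.0 CPM in DMSO, 44.3 ± 2.72 CPM in Fz7-21S and 63.7 ± 2.07 CPM in dFz7-21 (0.52 ± 0.07 between the peptides, adjusted p = 2.6e-06). Nqo1, a quinone reductase controlled by NRF2, stood at 106 ± 7.60, 139 ± 3.24 and 185 ± 7.72 CPM (0.41 ± 0.05, adjusted p = 2.7e-06), and Cth at 211 ± 0.729 CPM in DMSO. Nupr1, a stress-induced chromatin protein gene, was high in Fz7-21S alone, at 35.9 ± 1.77 CPM in DMSO, 53.9 ± 8.36 in Fz7-21S and 34.7 ± 3.27 in dFz7-21 (-0.63 ± 0.09 between the peptides, adjusted p = 1.3e-05). Of the integrated stress response list 7 of 27 rose and 4 fell between the peptides (12 and 3 without both libraries). Of the NRF2 list 12 of 31 rose and 2 fell (19 and 1 without both libraries). The called shares were 40.7% and 45.2%, against 33.7% of all genes. Srxn1, sulfiredoxin, rose by 0.59, while Gpx2, the intestinal glutathione peroxidase, fell by 0.95 with all Fz7-21S libraries above all dFz7-21 libraries and replicate 4 the highest. Of 26 chaperones and secretory stress genes of the endoplasmic reticulum 11 rose (42.3% called; 16 without both libraries), by 0.30 in Xbp1, the transcription factor of that response. Of 24 p53 targets 5 rose and 1 fell, 25% called against 33.7% of all genes (6 and 2 without both libraries). Cdkn1a, an inhibitor of the cell cycle, rose from 183, 197, 204 and 223 CPM to 266, 297, 359 and 263 CPM (0.55 ± 0.08, adjusted p = 4.2e-06), and Btg2, an antiproliferative gene, fell by 0.32. Genes of starvation and FoxO factors fell in 10 of 21 and rose in 3 (61.9% called against 33.7% of all genes). Klhl24 stood at -0.97 and Sesn3 at -0.82 on the log2 scale. Without both libraries 9 members fell and 4 rose.

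The genes that changed at 24 h were partly in place at 6 h. Between the same peptides at 6 h, 1086 genes passed (7.04%), 495 higher (3.21%) and 591 lower (3.83%). Called genes shared by both times numbered 740 in the same direction and 53 in the opposite one. The difference between the times was tested directly, as an interaction, and 1687 genes passed (10.9%), 900 toward higher (5.83%) and 787 toward lower (5.1%) at 24 h. This count was 3072 without both libraries. Replication genes were already low at 6 h, where 23 of 30 fell, and 2 of the 30 changed between the times (3 without both libraries). Cdc6 fell by 0.61 at 6 h and 0.71 at 24 h. Stem cell genes fell in 23 of 39 at 6 h. Whatever their state at 6 h, 24 of the 39 moved down between the times and 1 moved up (28 and 1 without both libraries). Lgr5 was at -1.83 ± 0.18 at 6 h and -4.39 ± 0.20 at 24 h, a change of -2.56 (adjusted p = 6.9e-07), whereas Ascl2 stood at -1.29 ± 0.17 and -1.83 ± 0.18, a change that did not pass (adjusted p = 0.17). Olfm4 did not pass at 6 h (-0.19 ± 0.13, adjusted p = 0.51), and its change between the times was -4.05 (adjusted p = 1.7e-12).

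Enterocyte genes had barely begun to move at 6 h. Of 44 genes 1 was higher then, and 24 moved up between the times (31 without both libraries), as did 6 of 11 ileal and bile acid genes (8 up and 1 down without both) and 15 of 25 genes of fatty acid oxidation (19). Fabp6 stood at -0.11 ± 0.21 at 6 h and 2.25 ± 0.19 at 24 h (change 2.36, adjusted p = 4.3e-06). Paneth genes fell in 4 of 26 at 6 h, and 15 moved down by 24 h (16 without both libraries, with 1 up); Lyz1 changed by -0.81 between the times (adjusted p = 1.5e-06). The list of reserve and injury-associated genes turned: 10 of 21 were higher at 6 h, against 3.21% of all genes. At 24 h 5 were higher and 8 lower (61.9% called against 33.7% of all genes). Without both libraries 4 were higher and 10 lower at 24 h. Between the times 10 moved down (12 down and 1 up without both). Clu, a marker of revival stem cells, stood at 0.33 ± 0.11 at 6 h and -1.24 ± 0.12 at 24 h (change -1.57, adjusted p = 6.0e-07). Of its members higher at 24 h, Basp1 was at 0.0964, 0.348, 24.3 and 0.416 CPM in dFz7-21 and thus high in replicate 3 alone; Ereg, Areg, Sprr1a and Krt19 were the others, and Krt19 went from 0.29 to 0.47 without both libraries. Basp1 did not pass without them (0.11, adjusted p = 0.96). Interferon genes were higher in 13 of 35 and lower in 1 at 6 h, and 3 changed between the times (4 without both libraries). Besides Olfm4 and Cbs, the smallest p for a change between times belonged to Tubb2b, a tubulin gene (0.31 ± 0.07 at 6 h, -1.31 ± 0.07 at 24 h), Clca3b, a gene of the stem cell list (0.15 ± 0.08, -1.60 ± 0.09), and Atp2c2, a Golgi calcium pump gene (-0.23 ± 0.08, -1.63 ± 0.08).

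**Figure D4:**
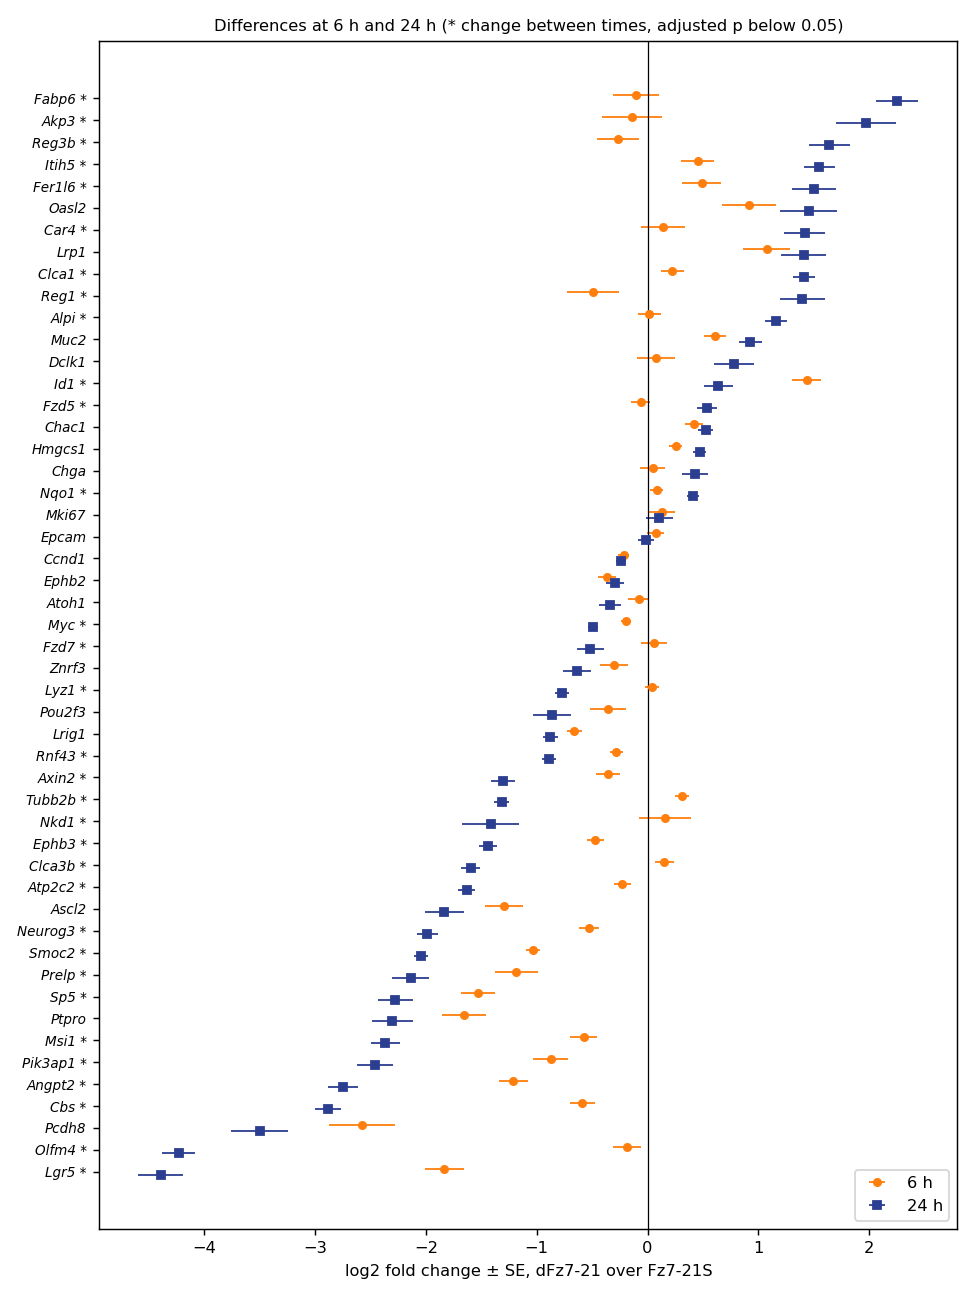
Log2 fold change ± SE of dFz7-21 over Fz7-21S at 6 h (orange) and 24 h (blue) for the named genes, ordered by the 24 h value; a star marks an adjusted p below 0.05 for the change between times. Olfm4 moved from -0.19 to -4.23 and Fabp6 from -0.11 to 2.25, while Pcdh8, at -2.57 and -3.50, carries no star.

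The remaining large rises were Itih5, a hyaluronan-binding protein gene (1.55 ± 0.14), Fer1l6, a ferlin gene (1.5 ± 0.20), and Lrp1, an endocytic receptor. Lrp1 rose from 54.9, 48.8, 54.9 and 33.7 CPM to 116, 124, 161 and 109 CPM (1.41 ± 0.20, adjusted p = 1.3e-05), highest in dFz7-21 replicate 3 and lowest in Fz7-21S replicate 4, and stood at 1.15 without both libraries. Lrp1 spans chr10:127538157-127621148 in the genome. In the 8 libraries the direction of calls followed gene length, taken from counts and RPKM and not from such spans. The length bin of Lrp1 is not given here. In the shortest 10% of genes (1543 genes) 111 rose and 211 fell, and in the longest 10% 296 rose and 174 fell. Without both libraries these counts turned to 227 and 121 in the shortest 10% and 240 and 344 in the longest. The median log2 fold change ran from -0.09 in the shortest 10% to 0.08 in the longest with all libraries, and from 0.04 to -0.04 without both. The falls of the stem cell list (median -1.29) and of the Wnt target list (-0.94) were -1.32 and -1.02 without both libraries, and -1.29 and -0.92 with an offset for gene length.

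**Figure D5:**
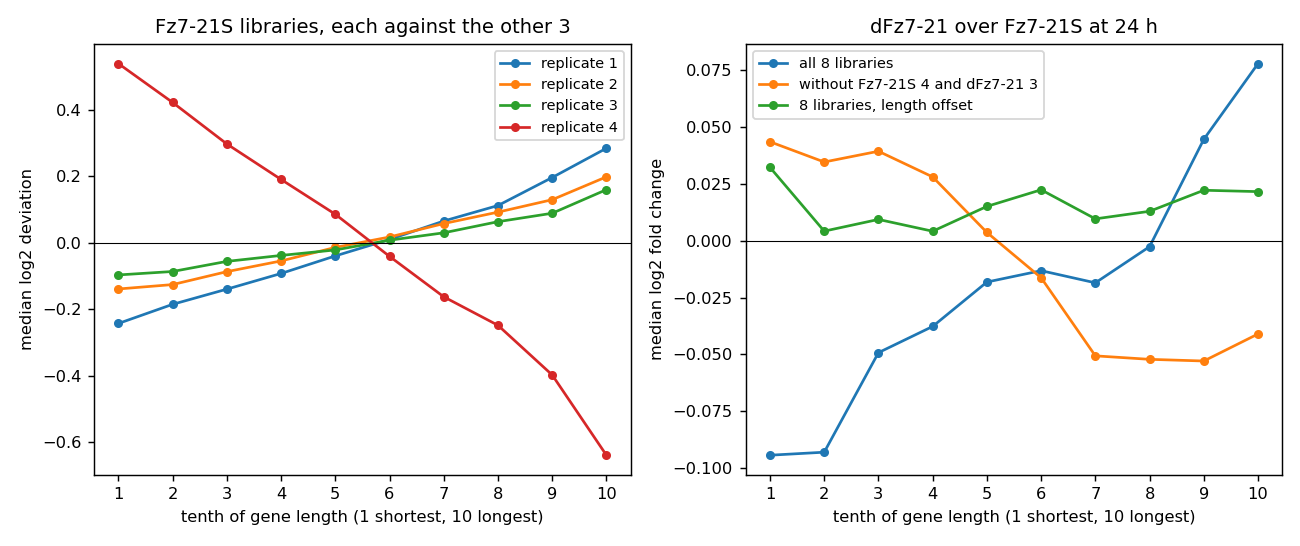
Median log2 values in 10 bins of gene length (horizontal, 1 shortest, 10 longest): left, each Fz7-21S library at 24 h against the other 3; right, the fold change of dFz7-21 over Fz7-21S with all 8 libraries, without Fz7-21S replicate 4 and dFz7-21 replicate 3, and with a length offset. Replicate 4 runs from 0.54 to -0.64 on the left, and on the right the trend turns from -0.09 and 0.08 at the ends to 0.04 and -0.04 when both libraries are left out.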

How the data were processed

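RNA was sequenced from 24 organoid libraries, 4 for each of DMSO, Fz7-21S and dFz7-21 at 6 h and 24 h. Per the file headers, the deposited counts are uniquely aligned reads over a gene's model. The authors' RPKM values, size-factor adjusted per the headers, served here for relative gene lengths alone. From the submitters' processing notes come the aligner GSNAP and the build GRCm38; the aligner's version, the annotation, strand setting and filters were not given in the sources used here. Deposited files hold 36528 genes by Entrez number; 31049 took symbols and coordinates from a RefSeq table of GRCm38.p6 and 78 more from a GENCODE table, and 5401, with 2.58 to 3.50% of the counts of the 8 libraries, stayed unnamed. The 8 libraries hold 21574144 to 27377146 counts, so 3 counts correspond to 0.110 to 0.139 CPM; intervals cover counting error and spread between libraries only.

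The main test was edgeR 4.0.16 (R 4.3.3) on the counts as deposited: genes kept by filterByExpr (15429), TMM factors, 1 robust quasi-likelihood fit of all 24 libraries with a term for each group, and Benjamini-Hochberg adjustment over all genes tested. Levels are TMM-normalised CPM. Standard errors and 95% intervals of log2 fold changes were derived from the quasi-likelihood F statistic. Every pair of libraries within each 24 h group differed by more than sampling noise; pairs at 6 h were not compared. The steps were tested on simulated data. Alternatives were limma 3.58.1 with voom quality weights, DESeq2 1.42.0, other normalisations and filters, an offset for gene length, a minimum fold of 1.2, a fit of the 8 libraries alone, a replicate block, and leaving out libraries.

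Genes were named by rule: the 10 largest rises and 10 largest falls of genes averaging log2 CPM 2 or more, with separate groups and a call in the same direction without both libraries that stand apart, a fixed panel, the 3 members of each list with the smallest p and up to 5 that went against the majority, and the 5 genes with the smallest p for a change between times. The comparison, the 35 lists and the panel were chosen with earlier results of these data known. Promoters came from a RefSeq table of GRCm38.p6; none on chromosome 18 was used. Figures were drawn with Python 3.11.15 and matplotlib 3.10.9. A few withheld items are not reported here.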

Additional observations from a re-analysis of the deposited data

Results flagged for a closer look

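In groups of 4 libraries, a library was looked for whose gap to the nearest other, as a share of the group's range, exceeded Dixon's 95% critical value, a bound that chance passes in about 1 in 20 groups. Of 114 groups over 53 genes and the marker sums, 15 passed. Fz7-21S replicate 4 stood apart at 39.1 CPM of Fabp6, 13.8 of Car4, 20.1 of Prelp, 150.5 of Fzd5, 29.2 of Neurog3, 69.8 of Id1 and 2119 of Epcam. In dFz7-21, replicate 3 stood apart at 40.6 CPM of Fzd7, 395 of Col1a1, 257 of Vim, 1554 of Epcam and 1928 of the mesenchymal sum. The other 3 were dFz7-21 replicate 2 at 241 CPM of Reg3b and 95.8 CPM of Clca1, and Fz7-21S replicate 3 at 69.2 CPM of Alpi. Thus 7 of the 15 were in Fz7-21S replicate 4 and 5 in dFz7-21 replicate 3. Col1a1, Vim and the mesenchymal sum are values by which dFz7-21 replicate 3 was already known to stand apart. Genes of the same library are also not independent, so the 15 cannot be set against the number that chance would give.

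The difference between the peptides changed from 6 h to 24 h in 32 of the 53 genes examined, by the interaction test. Over all genes tested 10.9% changed. Olfm4, Cbs, Tubb2b, Clca3b and Atp2c2 were named in part for having the smallest p in this same test. Other genes were chosen for large fold changes at 24 h, which enter the same test. The count of 32 therefore cannot be set against the share over all genes. On the log2 scale, 24 h minus 6 h, the change of absorptive and secreted-protein genes was 2.36 in Fabp6, 2.11 in Akp3, 1.28 in Car4, 1.14 in Alpi, 1.91 in Reg3b, 1.89 in Reg1 and 1.18 in Clca1. It was 1.10 in Itih5, 1.01 in Fer1l6, 0.60 in Fzd5 and 0.33 in Nqo1. Among stem cell and Wnt target genes it was -2.56 in Lgr5, -4.05 in Olfm4, -1.01 in Smoc2, -1.79 in Msi1, -0.95 in Axin2, -0.75 in Sp5, -1.57 in Nkd1, -0.61 in Rnf43, -0.30 in Myc and -0.97 in Ephb3. Fzd7 changed by -0.57, Lyz1 by -0.81, Neurog3 by -1.46 and Id1 by -0.80. The remaining genes moved down as well, by -2.30 in Cbs, -1.54 in Angpt2, -1.59 in Pik3ap1, -0.95 in Prelp, -1.62 in Tubb2b, -1.75 in Clca3b and -1.40 in Atp2c2.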

How the results depend on the processing

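The count of 5202 genes for dFz7-21 against Fz7-21S was 1689 with a minimum fold of 1.2 and 2275 in a fit of the 8 libraries alone; the other alternatives gave 4519 to 6124, and leaving out 1 library gave 4272 (without dFz7-21 replicate 2) to 5835 (without Fz7-21S replicate 4). Fz7-21S against DMSO, 40 genes, became 136 with DESeq2 and 2 with a minimum fold of 1.2. With only those 8 libraries 0 genes passed in edgeR, while 491 higher and 194 lower had an unadjusted p below 0.05, and leaving out 1 library gave 23 to 1915. The change between times, 1687 genes, became 3072 without both libraries that stand apart, 3569 with 3 DMSO libraries also left out, 2538 with an offset for gene length and 575 with a minimum fold of 1.2, and leaving out 1 library gave 1359 to 2932. The replicate block gave 5177, 35 and 1674 genes. Same-numbered dFz7-21 and Fz7-21S libraries correlated at 0.048, 0.037, 0.025 and 0.115 in their deviations from group means. Pairs with different numbers ran from -0.114 to 0.066. These deviations also carry the traits of both libraries that stand apart, so they cannot tell whether same-numbered libraries share a batch or culture. Of 3135 alternative values for the 165 named genes, 2953 kept direction and call, 165 in 51 genes lost the call, 2, in Lyz2 and Mcpt2, gained it and 15 in 4 genes reversed. Col1a1 reversed to -0.78 without dFz7-21 replicate 3, -0.29 without both libraries, -0.28 without 5 and -0.30 in the 8-library fit without both. Fstl1 reversed to -1.91, -2.07, -2.05 and -2.08 under the same 4 settings and to -0.77 with voom weights, and Basp1 to -0.32 without dFz7-21 replicate 3. Epcam, which did not pass with all libraries, reversed to 0.14 without Fz7-21S replicate 4, 0.16 without both, 0.17 without 5, 0.12 with voom weights and 0.15 in the 8-library fit without both. Over single libraries left out, Col1a1 ran from -0.78 to 8.74, Fstl1 from -1.91 to 5.2, Basp1 from -0.32 to 4.53 and Epcam from -0.065 to 0.14. These 4 genes' values follow from the library left out or weighted down; the cause of the other differences was not tested. Depth limits genes near 3 counts per library, Fzd10 among them.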

Other observations

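Several genes outside the naming rule, chosen after their values were seen, add to the account. Within the BMP and TGF-beta list, whose median was -0.02 without both libraries that stand apart and whose members Smad9 and Msx1 did not pass, Id3 rose from a mean of 31.4 CPM in Fz7-21S to 68.6 CPM in dFz7-21 (1.13 on the log2 scale, and 1.23 without both). Smad6 and Smad7, which encode inhibitors of the pathway, rose by 1.51 and 0.78 (1.58 and 0.76 without both). Bile acid transport genes beside Fabp6 also rose: Slc10a2, the apical bile acid importer, went from a mean of 28.2 CPM in Fz7-21S to 50.6 CPM in dFz7-21 (0.84), and Slc51b, the partner of Slc51a, rose by 1.11. Hormone genes were mixed. Pyy went from a mean of 2.56 CPM in Fz7-21S to 6.27 CPM in dFz7-21 (1.30, and 1.69 without both). Sct, which encodes secretin, went from a mean of 9.93 CPM in Fz7-21S to 17.0 CPM in dFz7-21 (0.78, and 1.26 without both). Tac1 also rose (0.53). Gcg, Cck, Gip, Sst, Ghrl and Nts did not pass (-0.21, -0.25, -0.15, -0.18, 0.04 and 0.21), nor did they without both. Cdk6, a kinase of G1, fell from a mean of 92.0 CPM in Fz7-21S to 46.5 CPM in dFz7-21 (-0.99). Ly6e, from the injury-associated list, fell from a mean of 154 CPM in Fz7-21S to 76.3 CPM in dFz7-21 (-1.01).

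Calls that were lost without both libraries include those of 2 genes with large fold changes. Ephb6 stood at 2.05 with all 8 libraries and 0.20 without both, and Bmp1 at 1.5 and 0.05. The mean of Ephb6 was 0.521 CPM in dFz7-21 and 0.124 CPM in Fz7-21S, the latter at the level of 3 counts per library (0.110 to 0.139 CPM).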
